A study of Mus musculus with 6 samples.

Results

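The fibroblast growth factor (FGF) genes, their receptors and the feedback genes of the ERK kinase pathway were examined in limb bones of newborn mice with a conditional knockout of Hdac3 and of WT mice. The set was defined by gene name in the deposited count table. It took the genes called Fgf with a number, the receptor genes Fgfr1, Fgfr2, Fgfr4 and Fgfrl1, the co-receptor gene Klb, the Sprouty and Spred genes, Dusp4, Dusp5, Dusp6, Etv4 and Etv5. Some other genes of the family were not analysed here. The names were found on 36 of 43346 rows, and 30 of these genes had 10 or more counts in at least 3 libraries.

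Bone RNA was sequenced from 3 libraries labelled Hdac3 CKO and 3 labelled WT, all from C57BL/6 pups aged 1 day. The design text ties the knockout to Prx1. Cre recombinase under the limb enhancer of Prx1 (Prrx1) acts in limb bud mesenchyme, the source of bone, cartilage and tendon but not of blood cells or muscle fibres, so unrecombined cells contribute RNA to every library. The Cre and floxed-allele status of the WT pups is not given in the sources used here. Neither is whether each library came from a separate pup or litter, so every p-value rests on library-to-library spread that could be partly technical.

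FGFs are secreted proteins that bind, with heparan sulfate, to receptor tyrosine kinases on nearby cells. Active receptors signal through adaptors and the Ras, Raf, MEK and ERK cascade, which induces transcription factors such as Etv4 and Etv5 and also its own inhibitors, among them the Sprouty and Spred proteins and the phosphatase Dusp6. In the growing limb, Fgf10 from the mesenchyme sustains outgrowth, Fgf18 from the perichondrium restrains cartilage growth and promotes bone formation, and Fgfr1 and Fgfr2 act in cells of the osteoblast lineage.

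RefSeq promoter sequences on GRCm38.p6, the assembly of mm10, were matched by symbol for 23 of the 30 genes, each covering 250 bases before and 50 bases after a transcription start. None was matched for Fgfr1, Dusp4, Spry4, Etv4, Fgf1, Fgf16 or Fgf17. The ETS core CCGGAA, the letters read by ETS factors such as Etv5, occurred on either strand in 5 of these 23 promoters (21.7%) and in 14.9% of all 32851 promoters in the table. The GC box GGGCGG, read by Sp1-type factors, occurred on either strand in 16 of the 23 (69.6%) and in 35.7% of all promoters. A match describes the letters and does not show binding. The promoters shown are those of Fgfrl1, the member with the highest level per length (chr5:108693979-108694278, plus strand), of Fgfr2, the receptor that stood lower in Hdac3 CKO libraries (chr7:130266759-130267058, minus strand), and of Fgf10, the ligand with the largest difference (chr13:118714449-118714748, plus strand). The other 2 belong to feedback and target genes, Spry2 (chr14:105896770-105897069, minus strand) and Etv5 (chr16:22439521-22439820, minus strand). Capitals mark CCGGAA and GGGCGG on either strand, and no 2 matches overlapped.
Fgfrl1: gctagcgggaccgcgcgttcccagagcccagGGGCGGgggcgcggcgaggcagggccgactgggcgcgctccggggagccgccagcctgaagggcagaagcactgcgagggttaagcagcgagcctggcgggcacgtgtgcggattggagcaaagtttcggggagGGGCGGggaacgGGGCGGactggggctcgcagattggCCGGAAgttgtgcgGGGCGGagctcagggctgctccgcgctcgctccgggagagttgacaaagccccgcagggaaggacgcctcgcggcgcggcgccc
Fgfr2: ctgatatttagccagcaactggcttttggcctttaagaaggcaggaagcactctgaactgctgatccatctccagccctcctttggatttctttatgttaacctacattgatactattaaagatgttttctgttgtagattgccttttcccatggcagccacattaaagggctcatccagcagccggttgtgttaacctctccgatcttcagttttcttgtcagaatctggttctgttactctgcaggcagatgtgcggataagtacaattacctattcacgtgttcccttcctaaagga
Fgf10: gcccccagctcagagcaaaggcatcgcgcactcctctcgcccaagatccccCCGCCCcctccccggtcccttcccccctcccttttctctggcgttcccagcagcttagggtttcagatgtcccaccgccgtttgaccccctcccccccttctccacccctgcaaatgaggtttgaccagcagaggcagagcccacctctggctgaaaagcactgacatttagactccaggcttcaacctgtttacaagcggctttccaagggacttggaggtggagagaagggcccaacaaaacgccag
Spry2: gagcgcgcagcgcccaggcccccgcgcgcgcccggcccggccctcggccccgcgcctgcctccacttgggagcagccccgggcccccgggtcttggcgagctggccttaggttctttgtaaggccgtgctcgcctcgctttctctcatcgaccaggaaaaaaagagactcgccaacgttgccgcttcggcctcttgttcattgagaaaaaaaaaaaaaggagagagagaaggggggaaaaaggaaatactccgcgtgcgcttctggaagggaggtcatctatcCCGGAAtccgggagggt
Etv5: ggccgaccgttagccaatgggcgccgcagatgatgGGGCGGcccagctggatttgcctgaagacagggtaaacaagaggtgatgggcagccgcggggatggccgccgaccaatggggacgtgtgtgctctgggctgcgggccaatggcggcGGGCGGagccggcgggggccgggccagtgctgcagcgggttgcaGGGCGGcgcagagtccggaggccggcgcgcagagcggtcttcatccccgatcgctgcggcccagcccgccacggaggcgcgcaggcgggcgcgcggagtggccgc

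The Fgfrl1 promoter held 4 GC boxes and 1 ETS core, that of Etv5 held 3 GC boxes, that of Fgf10 held 1 GC box, and that of Spry2 held 1 ETS core. The Fgfr2 window held neither motif.

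Total counts ranged from 43389262 to 50927978 per library. Hdac3, the targeted gene, fell, with 31.8, 29.4 and 28.3 CPM in Hdac3 CKO libraries and 48.4, 47.4 and 50.3 CPM in WT libraries (log2 fold change -0.71, edgeR adjusted p = 0.0289), where CPM is the count scaled to library size (counts per 1000000) after TMM normalisation. TMM factors were 0.88, 0.98 and 0.95 in Hdac3 CKO libraries and 1.05, 1.09 and 1.07 in WT libraries. Compared with scaling by library totals, TMM thus raises the Hdac3 CKO values relative to WT for every gene. The Hdac3 call was kept without Hdac3 CKO replicate 1 (adjusted p = 0.0139) and lost without each of the other 5 libraries (0.0665 to 0.129). Marker genes of osteoblasts were abundant in all 6 libraries, as the label limb bone implies. Summed over 11 osteoblast markers, the level was 71065 to 101376 CPM in Hdac3 CKO libraries and 46217 to 61564 CPM in WT libraries, and 1 of the 11 rose, Dmp1, a matrix protein of osteocytes. The sum does not describe every marker. Log2 fold changes were above 0 for 7 of the 11 and below 0 for 4, with a lowest value of -0.44. The Hdac3 CKO values lay wholly above the WT values for 5 markers and wholly below for 1. The sum over 11 cartilage markers reached 17583 CPM in Hdac3 CKO replicate 3 and 8936 CPM in WT replicate 3, against 2433 to 3118 CPM in the other 4 libraries. The sum over 11 skeletal muscle markers was 47260 CPM in Hdac3 CKO replicate 1 and 25648 to 31191 CPM in the other 5. None of the cartilage or muscle markers passed the test. Of 7 neutrophil markers 4 fell, with sums of 17.4 to 26.9 CPM in Hdac3 CKO libraries and 83.4 to 249 CPM in WT libraries. Of 6 erythroid markers 2 fell (132 to 168 CPM in Hdac3 CKO, 216 to 368 CPM in WT), and of 6 macrophage markers 4 rose (455 to 529 CPM in Hdac3 CKO, 246 to 266 CPM in WT). Fits with a cartilage or a muscle marker covariate were made as alternatives. Beyond these, the part of these cell types in the results that follow was not tested. The tendon, endothelial, epidermal and Schwann cell lists had 0 members called, and Ivl, an epidermal marker with 0 counts in 4 libraries, was the only marker at 0 in any library.

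None of the FGF pathway members passed the test. Hdac3 CKO was tested against WT over 20210 genes by edgeR's quasi-likelihood method, and "rose" and "fell" are used at a Benjamini-Hochberg adjusted p under 0.05. Of the 30 genes 29 were tested, Fgf4 being too low for the test's filter, and 0 of 29 rose and 0 fell, against 1.12% of all tested genes called, 0.668% higher and 0.450% lower. DESeq2 called 1 of 28 members, Fgfr1, against 4.12% of all genes it tested. At an unadjusted p under 0.05 there were 4 of the 29, with Fgfr1 and Dusp4 higher and Fgf10 and Fgfr2 lower in Hdac3 CKO libraries, where the share over all tested genes was 14.7%, with 7.68% (1553 genes) higher and 1415 genes lower. The 3 Hdac3 CKO values lay wholly above or wholly below the 3 WT values for 4 of the 29, Fgfr1, Dusp4 and Spry4 above and Fgf12 below, against 22.5% of all tested genes, 11.5% above and 10.9% below. The median log2 fold change, Hdac3 CKO over WT, was 0.03 over the 29 members and 0.00088 over all tested genes. The members' counts were thus not above the background of the table.

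**Figure D1:**
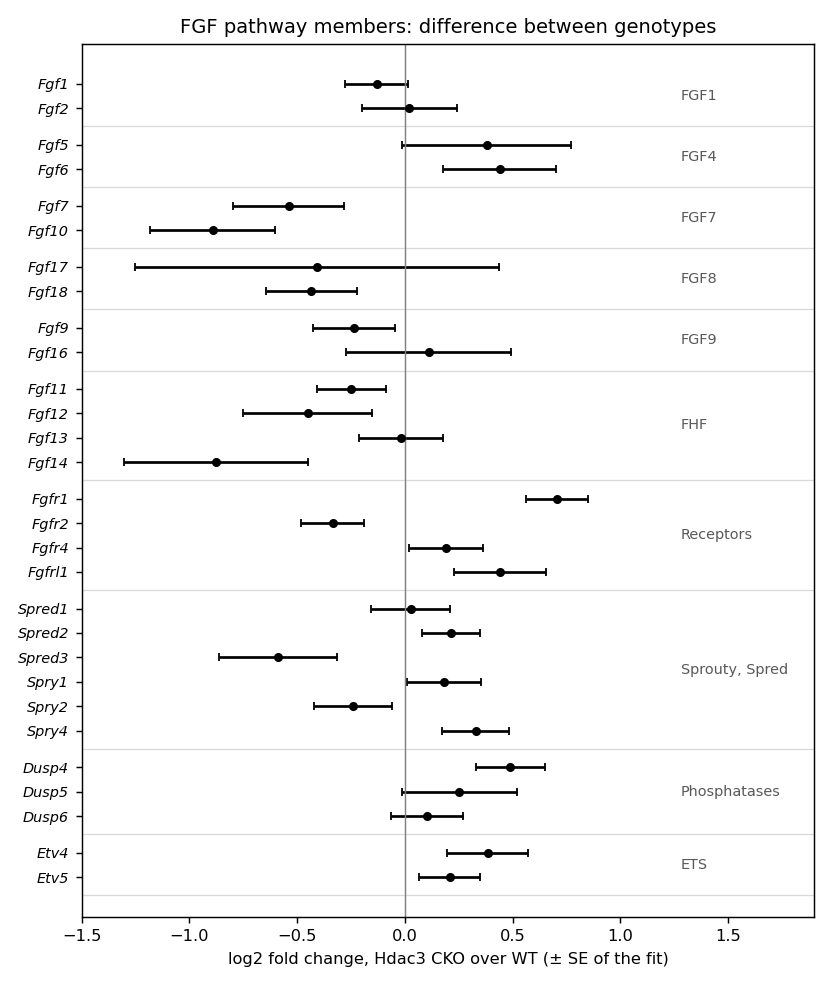
The log2 fold change of Hdac3 CKO over WT on the horizontal axis for the 29 tested members, grouped by family, with the standard error of the fit as bars. Fgfr1 stands highest at 0.71 and Fgf10 lowest at -0.89, and no member passed the adjusted test.

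Levels were compared between genes as CPM per kilobase of the deposited gene length. Fgfrl1, a receptor that binds FGFs but lacks the kinase domain, had the highest level, from 39.1 to 79.2 CPM per kilobase with a median of 48.9 over the 6 libraries. Fgfr1 followed with 29.7 to 61.0 and a median of 42.5 CPM per kilobase. Next came the feedback inhibitors Spry1, with a median of 27.2, and Dusp6, with a median of 24.2 CPM per kilobase. Spry2 (17.2), Spred1 (13.2), Fgfr4 (12.5), Etv5 (11.7), Fgfr2 (10.9) and Spry4 (10.03) had medians within a narrower span. The secreted FGFs with the highest median were Fgf7 (4.50) and Fgf18 (4.15), below the receptors and most feedback genes. Fgf1 (3.102), Fgf2 (2.94), Fgf6 (1.899), Fgf9 (1.34), Fgf16 (1.12) and Fgf10 (0.852) followed, all as medians in CPM per kilobase. In this order the ranges of neighbouring genes over the 6 libraries overlapped in 27 of 29 neighbour pairs. Neighbours were not compared library by library, so an overlap does not show that their levels were equal. In bulk RNA, fewer cells of a type and less RNA per cell cannot be told apart.

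**Figure D2:**
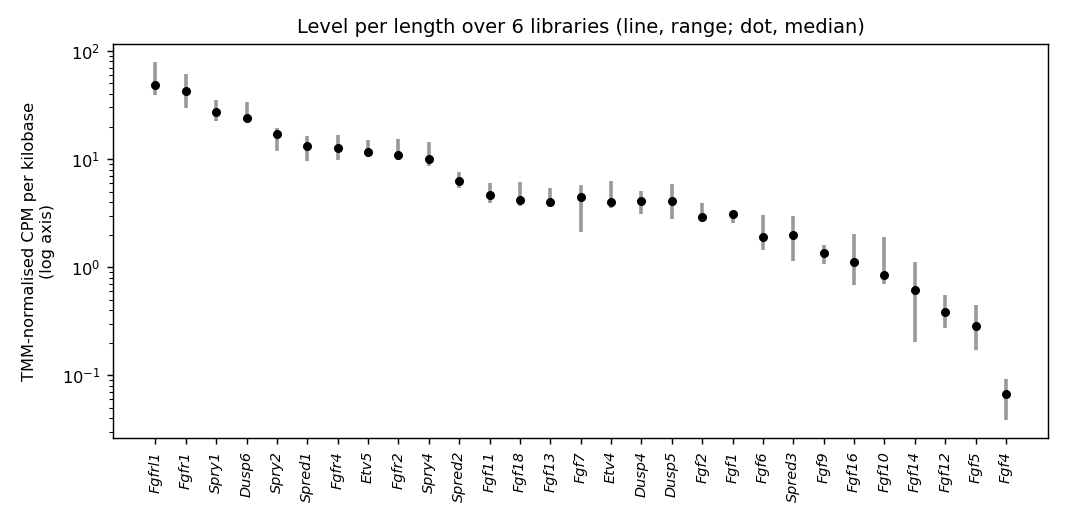
CPM per kilobase on a log axis for 29 members with counts in every library, ordered by mean level, with the range over 6 libraries as a line and the median as a dot. Receptors and most feedback genes occupy the upper end, while Etv4, Dusp4, Dusp5 and Spred3 stand among the FGF genes in the lower part. The order runs from Fgfrl1 with a median of 48.9 to Fgf4 with a median of 0.0679.

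The 6 members below 10 counts in 3 libraries were all near 0. Fgf15, the endocrine FGF of the mouse intestine, had 0 counts in every library, which allows 0.0564 to 0.0726 CPM, the value of 3 counts in each library. Fgf8, a signal of the early limb bud ridge, had 5, 0 and 0 counts in Hdac3 CKO libraries and 0, 0 and 2 counts in WT libraries. Fgf3 had 2, 2 and 0 counts in Hdac3 CKO libraries and 0, 0 and 3 counts in WT libraries. Fgf20 had 3 to 9 counts in Hdac3 CKO libraries and 5 to 12 in WT libraries, and Fgf22 had 0 to 5 and 1 to 4. Klb, the co-receptor of endocrine FGFs, had 2, 9 and 20 counts in Hdac3 CKO libraries and 4, 8 and 4 counts in WT libraries. These values overlapped between the genotypes for all 6 genes and no test was made. Fgf4, another signal of the limb bud ridge, had 10, 12 and 11 counts in Hdac3 CKO libraries and 9, 6 and 8 counts in WT libraries. Fgf4 thus met the minimum of 10 counts in 3 libraries only through the Hdac3 CKO libraries. With that minimum as the filter, its log2 fold change was 0.79 with an edgeR adjusted p of 0.457. Because the filter admits it through the group where it is higher, nothing is drawn from this difference.

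Fgfr1 had the highest log2 fold change and the smallest p of the 29 members. Fgfr1 measured 429, 496 and 403 CPM in Hdac3 CKO libraries, against 285, 241 and 288 CPM in the WT libraries. All 3 Hdac3 CKO values lay above all 3 WT values. The means were 443 ± 48 CPM in Hdac3 CKO and 271 ± 26 CPM in WT (SD, n = 3 each), a log2 fold change of 0.71 ± 0.14 (SE) with a 95% interval of 0.38 to 1.03. The unadjusted p of 0.000688 ranked 245 of 20210, and the edgeR adjusted p was 0.0568, which missed the threshold. The call depended on the setting. DESeq2 called it with an adjusted p of 0.000559, edgeR with no filter on low counts gave 0.0237, edgeR with a muscle marker covariate gave 0.0255, and edgeR without Hdac3 CKO replicate 1 gave 0.0471. Without any other single library it was 0.110 to 0.267, and over all alternatives it ranged from 0.000559 to 0.267. The summed osteoblast markers were likewise higher in all 3 Hdac3 CKO libraries, though 4 of the 11 markers had a log2 fold change below 0. Their part in the Fgfr1 difference was not tested. In the annotation, 164 bases of Fgfr1 exons overlap an antisense gene, Gm16159, and the strand setting of the counting is not given in the sources used here.

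Fgfr2, the other main receptor of the skeletal lineage, stood at 71.1, 79.1 and 78.4 CPM in Hdac3 CKO libraries and at 98.9, 79.0 and 110 CPM in WT libraries. WT replicate 2 lay within the Hdac3 CKO range, so the genotypes overlapped. The log2 fold change was -0.33 ± 0.15 with an adjusted p of 0.33. Per length, Fgfr1 was 5.38, 5.59 and 4.59 times as high as Fgfr2 in the Hdac3 CKO libraries, against 2.57, 2.72 and 2.32 times in the WT libraries. This ratio did not overlap between the genotypes, and it was formed after the values of both genes were seen, so no test is given. The deposited span of Fgfr2 runs from 130162451 to 133123350 on chromosome 7, and its exons share 314 bases with those of Ctbp2 on the same strand. Ctbp2 itself stood at 23.8 to 27.1 CPM in Hdac3 CKO libraries and at 26.1 to 26.8 CPM in WT libraries.

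Fgfr4, a receptor known for its roles in liver and muscle repair, stood at 58.8, 42.7 and 45.2 CPM in Hdac3 CKO libraries and at 35.0, 43.6 and 49.9 CPM in WT libraries, at 0.19 ± 0.17 on the log2 scale. Fgfrl1 stood at 210, 114 and 170 CPM in Hdac3 CKO libraries and at 104, 124 and 136 CPM in WT libraries. For Fgfrl1 the log2 fold change was 0.44 ± 0.21 with an adjusted p of 0.37, and 0.21 without Hdac3 CKO replicate 1, the highest library. Both genes overlapped between the genotypes. Of the 4 receptor genes together, per length, Fgfr1 made up 33.4%, 48.1% and 36.2% in Hdac3 CKO libraries and 35.9%, 29.8% and 30.6% in WT libraries, which also overlap.

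**Figure D3:**
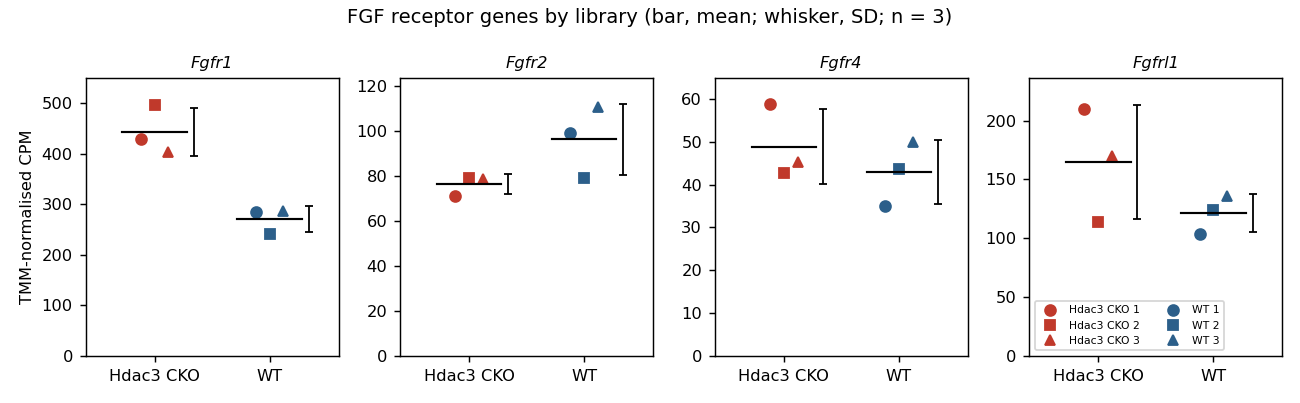
TMM-normalised CPM of the 4 receptor genes in each library, Hdac3 CKO on the left and WT on the right of each panel, with the mean as a bar and the SD as a whisker (n = 3). Only the Fgfr1 panel shows no overlap, with 403 to 496 CPM in Hdac3 CKO and 241 to 288 CPM in WT.

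Of the 14 tested FGF genes, 10 had a log2 fold change below 0 and 4 above (Fgf2 and Fgf16 also fall below 0 with library totals as the scaling), and over all tested genes 10080 of 20210 were below 0. The largest difference was that of Fgf10, a mesenchymal ligand of the epithelial form of Fgfr2. Fgf10 measured 3.24, 3.99 and 3.60 CPM in Hdac3 CKO libraries and at 8.79, 7.48 and 3.84 CPM in the WT libraries. WT replicates 1 and 2 were higher, while WT replicate 3 lay within the Hdac3 CKO range. The log2 fold change was -0.89 ± 0.29 with an adjusted p of 0.20, and it ranged from -0.65 (adjusted p of 0.564) without WT replicate 1 to -1.17 (adjusted p of 0.0733) without WT replicate 3. WT replicate 3 was also the WT library richest in cartilage markers, at 8936 CPM. Hdac3 CKO replicate 3 was richer still, at 17583 CPM, and its Fgf10 level lay between those of the other Hdac3 CKO libraries. With a cartilage marker covariate the log2 fold change of Fgf10 was -0.87. Without both cartilage-rich libraries it was -1.17. Beyond these fits, the part of cartilage RNA in the Fgf10 levels was not tested. An antisense gene, Gm16263, shares 123 exon bases with Fgf10.

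Fgf7, which with Fgf10 signals from mesenchyme to epithelium, stood at 6.85, 14.7 and 12.9 CPM in Hdac3 CKO libraries and at 18.9, 16.7 and 14.5 CPM in WT libraries. Hdac3 CKO replicate 1 was far below the others, and the log2 fold change of -0.54 ± 0.26 was -0.29 without it. Fgf18, the perichondrial ligand, stood at 5.04, 4.79 and 4.35 CPM in Hdac3 CKO libraries and at 7.29, 7.04 and 4.82 CPM in WT libraries. As for Fgf10, only WT replicate 3 lay within the Hdac3 CKO range of Fgf18, and the log2 fold change was -0.43 ± 0.21 with an adjusted p of 0.37. Fgf17, of the same subfamily as Fgf18, reached at most 0.329 CPM, and the fit placed it at -0.41 ± 0.84 on the log2 scale.

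Fgf9, a ligand made by perichondrium and periosteum that acts on limb mesenchyme, stood at 4.53, 5.54 and 5.91 CPM in Hdac3 CKO libraries and at 6.84, 6.46 and 5.53 CPM in WT libraries, at -0.24 ± 0.19 on the log2 scale. Fgf16, of the same subfamily, stood at 1.65, 3.36 and 1.12 CPM in Hdac3 CKO libraries and at 2.09, 1.55 and 2.03 CPM in WT libraries. Its log2 fold change of 0.11 was -0.45 without Hdac3 CKO replicate 2. Fgf1, which binds every FGF receptor, averaged 13.4 ± 1.6 CPM in Hdac3 CKO and 14.7 ± 0.43 CPM in WT (SD, n = 3 each). Fgf2, the basic FGF of bone matrix, averaged 5.74 ± 0.93 CPM in Hdac3 CKO and 5.66 ± 1.29 CPM in WT, at 0.02 ± 0.22. For Fgf2 the 95% interval of -0.47 to 0.51 leaves room for a moderate change either way. Fgf2 shares 640 exon bases with Nudt6 on the opposite strand, and Nudt6 stood at 6.37 to 8.95 CPM in Hdac3 CKO libraries and at 6.94 to 8.30 CPM in WT libraries, so reads of the pair may not be fully separated.

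Only the FGF4 subfamily, besides Fgf16 and Fgf2, stood above 0. Fgf6, a ligand of skeletal muscle, stood at 3.73, 2.28 and 2.67 CPM in Hdac3 CKO libraries and at 2.24, 1.76 and 2.40 CPM in WT libraries, a log2 fold change of 0.44 ± 0.26. Its highest library, Hdac3 CKO replicate 1, was also the one with the highest muscle marker sum, 47260 CPM. WT replicate 2 had the next highest sum, 31191 CPM, and the lowest Fgf6 value. With a muscle marker covariate the log2 fold change of Fgf6 was 0.25. Beyond this, the part of muscle RNA in the Fgf6 levels was not tested. Fgf5, known for ending hair growth, stood at 0.38 ± 0.39 with a mean of 0.808 CPM in Hdac3 CKO and 0.619 CPM in WT. Neither passed the test, with adjusted p of 0.46 and 0.68 in edgeR.

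**Figure D4:**
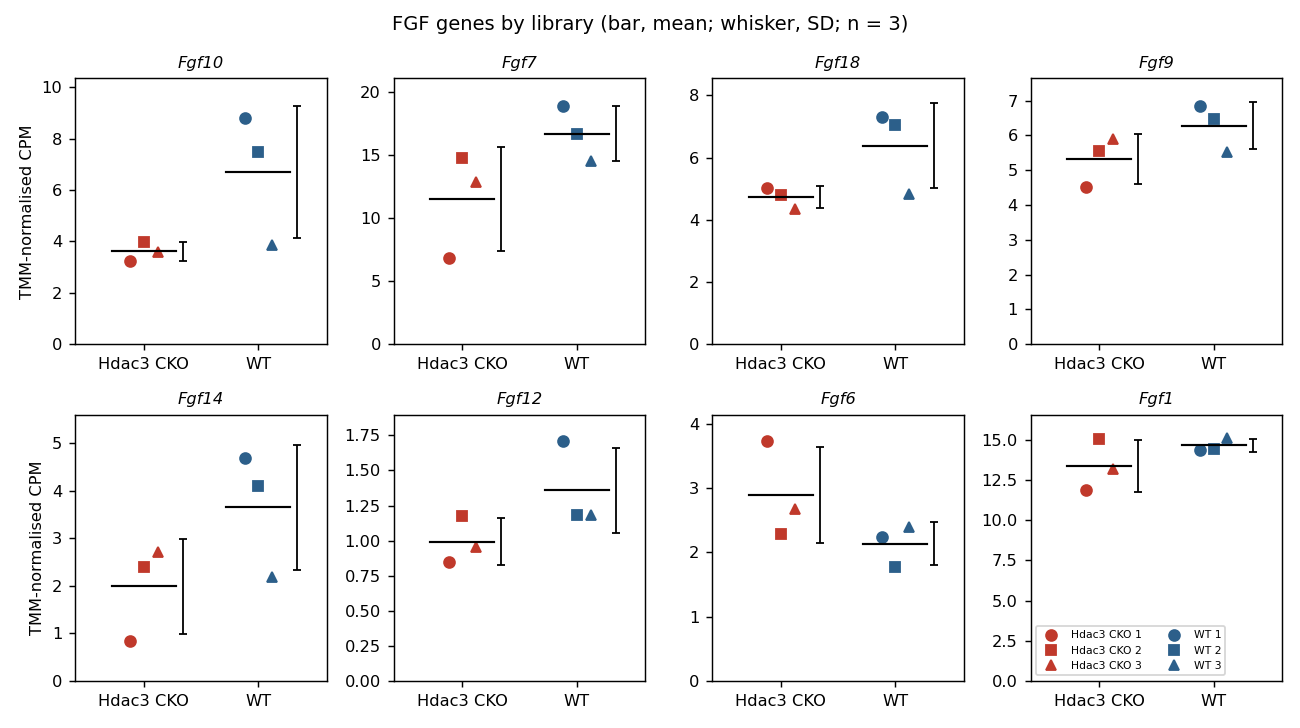
TMM-normalised CPM of 8 FGF genes in each library, Hdac3 CKO left of WT in each panel, with the mean as a bar and the SD as a whisker (n = 3). In the Fgf10 and Fgf18 panels WT replicate 3, at 3.84 and 4.82 CPM, lies within the Hdac3 CKO range while the other WT libraries lie above it.

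The FGF homologous factors Fgf11, Fgf12, Fgf13 and Fgf14 remain inside the cell and are best known as partners of voltage-gated sodium channels in neurons and muscle. All 4 had a log2 fold change below 0 and none passed the test. Fgf14 stood at 0.847, 2.40 and 2.72 CPM in Hdac3 CKO libraries and at 4.70, 4.09 and 2.18 CPM in WT libraries. The groups overlapped, the log2 fold change was -0.88 ± 0.43, and without Hdac3 CKO replicate 1 it was -0.53. Fgf14 shares 220 exon bases with an antisense gene, Gm28932. Fgf12 stood at 0.847, 1.17 and 0.953 CPM in Hdac3 CKO libraries and at 1.71, 1.183 and 1.180 CPM in WT libraries. The Fgf12 values did not overlap but nearly touched, and the adjusted p was 0.50. Fgf11 averaged 13.3 ± 1.2 CPM in Hdac3 CKO and 15.8 ± 2.2 CPM in WT, and Fgf13 averaged 17.5 ± 3.7 CPM in Hdac3 CKO and 17.7 ± 3.5 CPM in WT (SD, n = 3 each). The X-linked Fgf13 had a log2 fold change of -0.02, which was 0.16 without WT replicate 2.

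Of the 11 tested feedback and target genes, 9 had a log2 fold change above 0 and 2 below, with a median of 0.21, and none passed the test. Over all tested genes 10130 of 20210 were above 0. With library totals as the scaling, Spry1, Spred1 and Dusp6 also stood below 0. Among 14 further ERK-responsive genes, described below, 7 were above 0 and 7 below, with the ETS factor Etv1 at -0.81 (edgeR adjusted p = 0.13). Dusp4, a nuclear phosphatase of ERK and related kinases, differed most by p. Dusp4 stood at 13.5, 11.9 and 13.8 CPM in Hdac3 CKO libraries and at 8.68, 8.53 and 10.7 CPM in WT libraries. All 3 Hdac3 CKO values were above all 3 WT values, with a log2 fold change of 0.49 ± 0.16 and an adjusted p of 0.21. Spry4, a Sprouty inhibitor upstream of Raf, stood at 65.5, 47.1 and 48.0 CPM in Hdac3 CKO libraries and at 44.9, 43.5 and 39.6 CPM in WT libraries. After TMM scaling these did not overlap either. The log2 fold change of 0.33 ± 0.15 was 0.15 without Hdac3 CKO replicate 1 and 0.13 with library totals as the scaling.

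Dusp6, the cytoplasmic ERK phosphatase often read as a gauge of FGF signalling, stood at 93.4, 62.4 and 65.6 CPM in Hdac3 CKO libraries and at 73.6, 69.9 and 62.7 CPM in WT libraries. Hdac3 CKO replicate 1 was the highest and Hdac3 CKO replicate 2 the lowest of the 6, so the WT values lay between. The log2 fold change of 0.10 ± 0.17, with a 95% interval of -0.27 to 0.48, was -0.11 without Hdac3 CKO replicate 1. Etv4, an ETS factor induced by FGF in the limb bud, stood at 19.5, 13.8 and 12.3 CPM in Hdac3 CKO libraries and at 11.3, 11.1 and 12.6 CPM in WT libraries. For Etv4 the log2 fold change was 0.38 ± 0.19, and 0.15 without Hdac3 CKO replicate 1. Its partner Etv5 stood at 62.0, 46.8 and 50.2 CPM in Hdac3 CKO libraries and at 42.5, 45.9 and 49.3 CPM in WT libraries, at 0.21 ± 0.14, or 0.07 without that library.

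Spry1 stood at 102, 89.0 and 65.2 CPM in Hdac3 CKO libraries and at 78.5, 67.5 and 79.6 CPM in WT libraries, and it shares 710 exon bases with Gm42922 on the opposite strand. Spry2, whose promoter is shown above, stood at 40.2, 24.7 and 28.7 CPM in Hdac3 CKO libraries and at 38.5, 38.8 and 33.2 CPM in WT libraries. Spry2 thus had Hdac3 CKO libraries both at the top and at the bottom of its range, and its log2 fold change of -0.24 ± 0.18 was -0.48 without Hdac3 CKO replicate 1. The Spred proteins block the activation of Raf at the membrane. Spred1 averaged 89.0 ± 23.1 CPM in Hdac3 CKO and 87.4 ± 4.9 CPM in WT, and Spred2 averaged 31.8 ± 3.4 CPM in Hdac3 CKO and 27.5 ± 2.4 CPM in WT (SD, n = 3 each). Spred3 stood at 6.88, 13.2 and 7.49 CPM in Hdac3 CKO libraries and at 17.9, 11.6 and 11.98 CPM in WT libraries, at -0.59 ± 0.27 with an adjusted p of 0.36. Spred3 shares 202 exon bases with Ggn on the opposite strand. The phosphatase Dusp5 averaged 10.9 ± 3.8 CPM in Hdac3 CKO and 9.17 ± 1.83 CPM in WT, and shares 547 exon bases with a gene on the opposite strand.

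Hdac3 CKO replicate 1 stood apart among the feedback genes. It held the highest value of 7 of the 11, which were Spry1, Spry2, Spry4, Spred2, Dusp6, Etv4 and Etv5, and the lowest value of Spred1 and Spred3. Over all 20210 tested genes the same library held the highest value of 30.3% and the lowest of 31.2%. It also had the highest muscle marker sum, the lowest TMM factor (0.88) and the largest share of reads in genes, 87.0% against 72.1% to 82.4% in the other libraries as derived from the deposited RPKM values. Log2 fold changes with a muscle marker covariate follow, with main-fit values in brackets. They were 0.18 (0.38) for Etv4, 0.17 (0.33) for Spry4 and -0.09 (0.10) for Dusp6. They were 0.07 (0.21) for Etv5, 0.12 (0.21) for Spred2 and 0.07 (0.18) for Spry1. Dusp4 stood at 0.47 (0.49) and Dusp5 at 0.29 (0.25). Spred1 stood at 0.21 (0.03), Spry2 at -0.47 (-0.24) and Spred3 at -0.34 (-0.59). Beyond this fit, the part of muscle RNA or of library make-up in these gene levels was not tested.

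**Figure D5:**
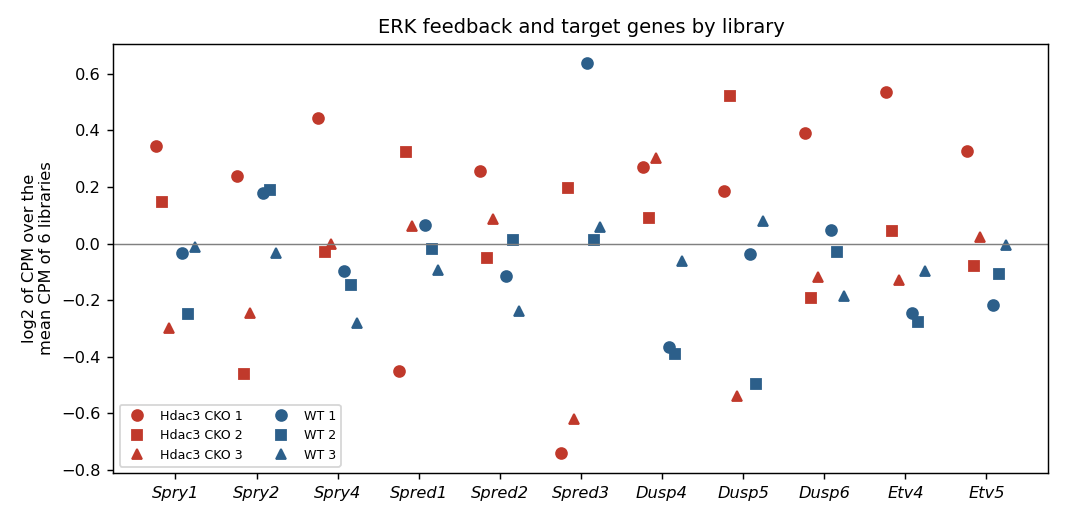
The log2 ratio of each library's CPM to the mean CPM of the 6 libraries for 11 feedback and target genes, Hdac3 CKO libraries left of WT libraries within each gene. The red circle of Hdac3 CKO replicate 1 is highest for 7 of the 11 genes, and the genotypes are fully apart only for Dusp4 and Spry4.

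The wider pathway was read from 4 further lists with 73 genes, all tested, of which 0 rose and 2 fell, with a median log2 fold change of 0.05, against 1.12% of all tested genes called. At an unadjusted p under 0.05 there were 9 higher and 6 lower of the 73, where the share over all tested genes was 14.7%. Both genes that fell lay outside the intracellular cascade. Of 22 genes for FGF binding and heparan sulfate, 1 fell, with a median of 0.03 over the list, and 4 were higher and 3 lower at an unadjusted p under 0.05. It was Gpc6, a cell surface heparan sulfate proteoglycan of the glypican family, on chromosome 14 from 116925297 to 117979529. Gpc6 measured 24.5, 25.1 and 32.7 CPM in Hdac3 CKO libraries, against 56.6, 52.2 and 52.1 CPM in the WT libraries. The groups were far apart, at -0.97 ± 0.14 on the log2 scale (edgeR adjusted p = 0.0199). The adjusted p of Gpc6 was 0.090, 0.078 and 0.059 without WT replicates 1, 2 and 3, and 0.107 without both cartilage-rich libraries. Sulf1, an extracellular sulfatase that trims heparan sulfate, stood at 56.4, 58.6 and 51.03 CPM in Hdac3 CKO libraries and at 118.7, 93.9 and 70.1 CPM in WT libraries. These did not overlap, but the adjusted p of 0.093 for the log2 fold change of -0.77 ± 0.18 missed the threshold. DESeq2 called Sulf1 (adjusted p = 0.0100), as did edgeR without a low-count filter (0.0232).

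Of 22 adaptors and kinases of the cascade 0 rose and 0 fell, with 1 at an unadjusted p under 0.05 and a median log2 fold change of 0.05. It was Gab1, a docking adaptor of receptor kinases, at 0.40 with an adjusted p of 0.17, and Map2k2, which encodes the kinase MEK2, was next at 0.37 with an adjusted p of 0.34. Of 15 other brakes on the pathway 0 rose and 0 fell, also 0 at an unadjusted p under 0.05, with a median of 0.06. The members with the smallest p were Dusp9, an ERK phosphatase, at 0.56, and Il17rd, an inhibitor of FGF receptor signalling, at 0.23. Of all 73 genes in the 4 lists, DESeq2 called 2 higher and 5 lower, against 4.12% of all genes it tested.

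Of 14 other genes that respond to ERK 1 fell and 0 rose, with a median of -0.04. At an unadjusted p under 0.05, 4 of the 14 were higher and 3 lower, against 14.7% of all tested genes, and the genotypes did not overlap for 4 higher and 3 lower, against 22.5%. The gene that fell was Egr2, a zinc finger transcription factor needed for myelination and active in bone, on chromosome 10 from 67535475 to 67542188. Egr2 measured 4.16, 3.31 and 3.77 CPM in Hdac3 CKO libraries and at 15.1, 10.3 and 13.0 CPM in the WT libraries. All Hdac3 CKO values lay well below the WT values, with a log2 fold change of -1.77 ± 0.20 and an adjusted p of 0.0088, which stayed between 0.0071 and 0.042 without any 1 library. It was 0.107 in the 4 libraries left without both cartilage-rich ones, where 0 genes of the whole table passed. Junb, a subunit of the AP-1 factor, was next by p, at 81.1, 73.9 and 53.1 CPM in Hdac3 CKO libraries and 51.1, 35.8 and 35.5 CPM in WT libraries. For Junb the log2 fold change was 0.77 ± 0.20 with an adjusted p of 0.12.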

How the data were processed

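Whole-number read counts per gene were deposited by the authors for each of the 6 libraries, with RPKM values (reads scaled by gene length and library size) for the same libraries. Per the submitters' processing notes, the tools were featureCounts, Subread, TopHat2 2.1.0 and bcl2fastq 1.8.4, and the build was mm10. Strand setting, multi-mapping and annotation release: not given in the sources used here.

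Groups came from the genotype label. Counts were filtered by edgeR's filterByExpr, which left 20210 of 43346 genes, scaled by TMM and compared, Hdac3 CKO over WT, by edgeR 4.0.16 (R 4.3.3) with robust quasi-likelihood tests, 4 residual degrees of freedom, no covariate and Benjamini-Hochberg adjustment over all tested genes. Standard errors were derived from the test statistic. Exon overlaps come from GENCODE M21. The procedure was tested on simulated data. Alternatives were other scalings and filters, DESeq2 1.42.0, limma 3.58.1 (voom, and log2 RPKM with a pseudocount of 1 or 0.1), marker covariates, and omitted libraries.

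All members above the count minimum are named. Of each further pathway list, genes that passed and the 2 with the smallest p are named, and Etv1 is named besides these. The members and lists were chosen with earlier results of these data known. Some genes are not reported here.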

Additional observations from a re-analysis of the deposited data

How the results depend on the processing

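The table held 135 genes called higher and 91 lower. The higher and lower counts were 54 and 106 with library totals as the scaling, 257 and 193 without a low-count filter, 454 and 374 with DESeq2, 117 and 59 with limma-voom, 64 and 58 with a cartilage marker covariate, and 0 and 0 without both cartilage-rich libraries. The higher count was 48 on log2(RPKM + 1) and 59 on log2(RPKM + 0.1). Without 1 library at a time, 11 to 127 were called higher and 10 to 75 lower. The share of calls that were higher was 59.7%, against 33.8% with library totals, where the median of all genes shifted to -0.18. Of the members, 1 (Fgfr1) was called higher by DESeq2, in the unfiltered fit and with a muscle marker covariate, and 0 to 1 without 1 library. Of the other pathway genes, 1 was called higher with no filter and 2 with DESeq2, and 5 were lower with DESeq2, 0 without both cartilage-rich libraries and 1 to 2 without 1 library. Hdac3 was -0.71 (adjusted p = 0.0703) with the cartilage covariate, -0.65 (0.294) without both cartilage-rich libraries, and -0.76 to -0.67 without 1 library, where the adjusted p was 0.0139 to 0.129 and the call was lost in 5 of 6 omissions. Log2 fold changes that turned sign were, with library totals, Dusp6 -0.0931, Fgf16 -0.0575, Fgf2 -0.16, Fgfr4 -0.0057, Spred1 -0.14 and Spry1 -0.0079. With limma-voom they were Fgf16 -0.0284 and Spred1 -0.0063. On log2(RPKM + 1) they were Dusp6 -0.0415, Fgf16 -0.0375, Fgf2 -0.0675 and Spred1 -0.12, and on log2(RPKM + 0.1) Dusp6 -0.0442, Fgf16 -0.13, Fgf2 -0.0908 and Spred1 -0.13. With the cartilage covariate Fgf16 was -0.0441, with the muscle covariate Dusp6 was -0.0926 and Fgf17 0.19, and without both cartilage-rich libraries Fgf2 was -0.24 and Spred1 -0.0380. Without 1 library, Dusp6 ranged from -0.11 to 0.21, Fgf17 from -1.94 to 0.15, Fgf13 from -0.21 to 0.16, Fgf16 from -0.45 to 0.41, Spred1 from -0.16 to 0.20 and Fgf2 from -0.12 to 0.22. The cause of these shifts was not tested. Of 522 member values under the alternatives, 485 kept their direction and side of the threshold, 33 turned sign and 4 passed the threshold. No member passed in the main fit, so the 485 mostly describe values that were not called in either fit. Fgf17 had no adjusted p in DESeq2 and was counted as kept. No paired analysis was possible because the labels name no litter, batch or pair. They give no replicate numbers either, and these were assigned in record order.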
